A study of Mus musculus with 6 samples.

Results

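The stress response of the endoplasmic reticulum (ER) was followed in mouse liver RNA through 10 genes, Hspa5, Dnajb9, Sdf2l1, Creld2, Manf, Herpud1, Derl1, Derl2, Derl3 and Xbp1. They were chosen by symbol as known targets of the transcription factors ATF6 and XBP1, together with the paralogs of Derl3. All 10 were found among the 15953 genes of the table, and all 10 were among the 12033 genes that passed the filter on low counts and were tested. The samples, called livers below, were 3 labelled Cgref1 KO and 3 labelled wild type, all of strain C57BL/6. The sources used here do not give sex, age, diet or the design of the knockout allele. The samples are labelled as hepatocytes, but the design text speaks of RNA from liver tissue. The labels call the samples of a group biological replicates without naming separate animals, so that p-values measure the spread between these samples.

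Proteins that hepatocytes secrete fold in the ER, with the help of chaperones such as HSPA5 (also called BiP). When unfolded protein builds up, the membrane sensors ATF6, IRE1 and PERK raise the unfolded protein response: ATF6 is cut to a transcription factor, IRE1 splices the Xbp1 transcript into the form that encodes the active factor, and PERK slows translation and brings up ATF4. ATF6 and spliced XBP1 switch on chaperones, their cofactors and the machinery of ER-associated degradation (ERAD), which pulls misfolded proteins out of the ER for destruction by the proteasome. The liver, which makes most plasma proteins, keeps much of this machinery active at all times. The counts are summed over each gene, so spliced and unspliced Xbp1 transcripts are not separated here.

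Promoters of targets of this kind often carry the ER stress response element (ERSE), CCAAT and CCACG with 9 bases between them, or ERSE-II, ATTGG and CCACG with 1 base between them. RefSeq promoter sequences (GRCm38.p6, 250 bases before to 50 bases after a start) were at hand for 8 of the 10 genes, all but Derl1 and Manf. On either strand, the ERSE was in the promoters of Hspa5, Derl3 and Creld2, against 0.119% of the 32851 promoters of the table, and ERSE-II was in that of Herpud1, against 0.0365%. Each match is shown because it is what these genes share in sequence, written in the direction of the element with its CCAAT or ATTGG and CCACG blocks in capitals:
Hspa5: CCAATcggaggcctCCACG
Derl3: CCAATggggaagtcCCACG
Creld2: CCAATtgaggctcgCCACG
Herpud1: ATTGGgCCACG

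The match began 65 bases before the promoter's start in Hspa5, 156 in Derl3, 126 in Creld2 and 52 in Herpud1. Distances were counted at the end of the match away from that start. For Derl3 and Herpud1 that start lies inside the gene's span in the deposited table. Those spans begin at chr10:75886944 and chr8:94379184, before the windows printed below. In Derl3 and Creld2 the element lay on the strand opposite to the gene, so it reads as its reverse complement in the gene's direction. The Hspa5 match with 40 bases to each side lay in an annotated Hspa5 exon. All 99 of these bases were in its untranslated region, and they are not printed. The surrounding sequence, with 40 bases to each side and the same blocks in capitals, lay outside the exons of GENCODE M21, on the plus strand at chr10:75893202-75893300 for Derl3, chr15:88819480-88819578 for Creld2 and chr8:94386337-94386427 for Herpud1:
Derl3: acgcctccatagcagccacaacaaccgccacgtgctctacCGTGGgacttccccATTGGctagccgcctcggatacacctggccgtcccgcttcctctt
Creld2: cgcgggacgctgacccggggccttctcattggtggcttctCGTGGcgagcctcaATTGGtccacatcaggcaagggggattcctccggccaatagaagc
Herpud1: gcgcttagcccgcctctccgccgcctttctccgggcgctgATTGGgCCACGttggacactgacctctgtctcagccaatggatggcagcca

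A further XBP1 site, the unfolded protein response element (UPRE), was in 0 of the 8 genes' promoters and in 0.676% of all. The short block CCACG, which is also part of both ERSE forms, was in 7 of the 8, all but Xbp1, and in 32.8% of all promoters. These matches describe letters in a window and are not evidence of binding.

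Library totals were 17649817 to 18366443 estimated counts in the knockout-labelled livers and 17627734 to 18185837 in the wild type livers. Cgref1, the targeted gene, had 7, 12 and 10 counts in the knockout-labelled livers and 7, 7 and 19 in the wild type livers, so its loss was not seen in the counts, and the groups are named by their labels throughout. With Cgref1 kept in the fit, its log2 fold change was -0.11 with a 95% confidence interval of -1.23 to 1.01. Over all genes, 0.00831% (1 gene, Gm14434) passed edgeR's quasi-likelihood test at a Benjamini-Hochberg adjusted p under 0.05.

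Most of the 10 genes were somewhat higher in the knockout-labelled livers, Derl3 by far the most, and none passed the test in edgeR. Derl3, which encodes an ERAD membrane protein, was 3.11-fold higher, Creld2 1.54-fold and Sdf2l1 1.45-fold, while Derl2 was 0.899-fold. Log2 fold changes were above 0 in 9 of the 10 genes, against 49.5% of all genes tested, and their median was 0.28, against -0.0022 over all. The 10 genes were chosen with earlier results of these data known, so their contrast with all genes is not independent of the choice. By edgeR's adjusted p 0 of 10 were called, and 2 of 10, Derl3 and Sdf2l1, had an unadjusted p under 0.05, against 5.15% of all genes. DESeq2 called 1 of 10, Derl3, against 0.233% of all genes. The median rested on the wild type libraries: it was 0.50 without wild type replicate 3 and 0.12 without wild type replicate 1.

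**Figure D1:**
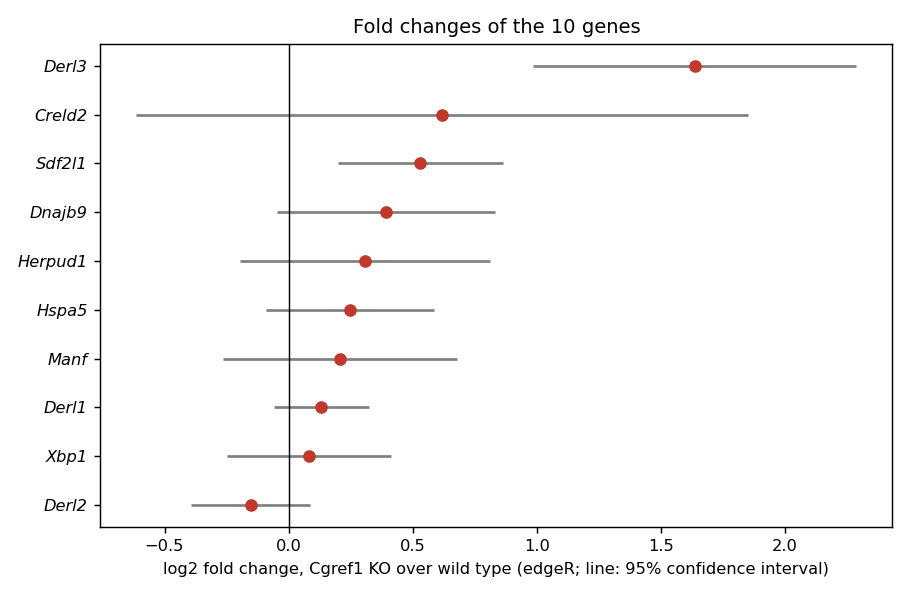
Log2 fold change of each of the 10 genes, Cgref1 KO over wild type, from edgeR (x axis; points are estimates, lines 95% confidence intervals). Derl3 lies at 1.64 and Sdf2l1 at 0.53 with intervals above 0, and the intervals of the other 8 genes span 0.

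Levels are compared between genes in TPM, a transcript abundance corrected for transcript length and library size. Herpud1 had the highest mean level over the 6 libraries at 350.7 TPM, followed by Hspa5 at 282.1 and Xbp1 at 185.9 TPM. Manf, Dnajb9 and Derl1 followed at 63.1, 54.6 and 52.4 TPM, then Derl2 at 37.3, Sdf2l1 at 29.6 and Creld2 at 25.8 TPM, and Derl3 was lowest at 3.34 TPM. Along this order the ranges over libraries overlapped for all neighbours except Xbp1 and Manf, Derl1 and Derl2, and Creld2 and Derl3. Herpud1 was above Hspa5, and Hspa5 above Xbp1, in all 6 libraries although their ranges overlapped, whereas Dnajb9 was above Derl1 in 3 of 6.

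**Figure D2:**
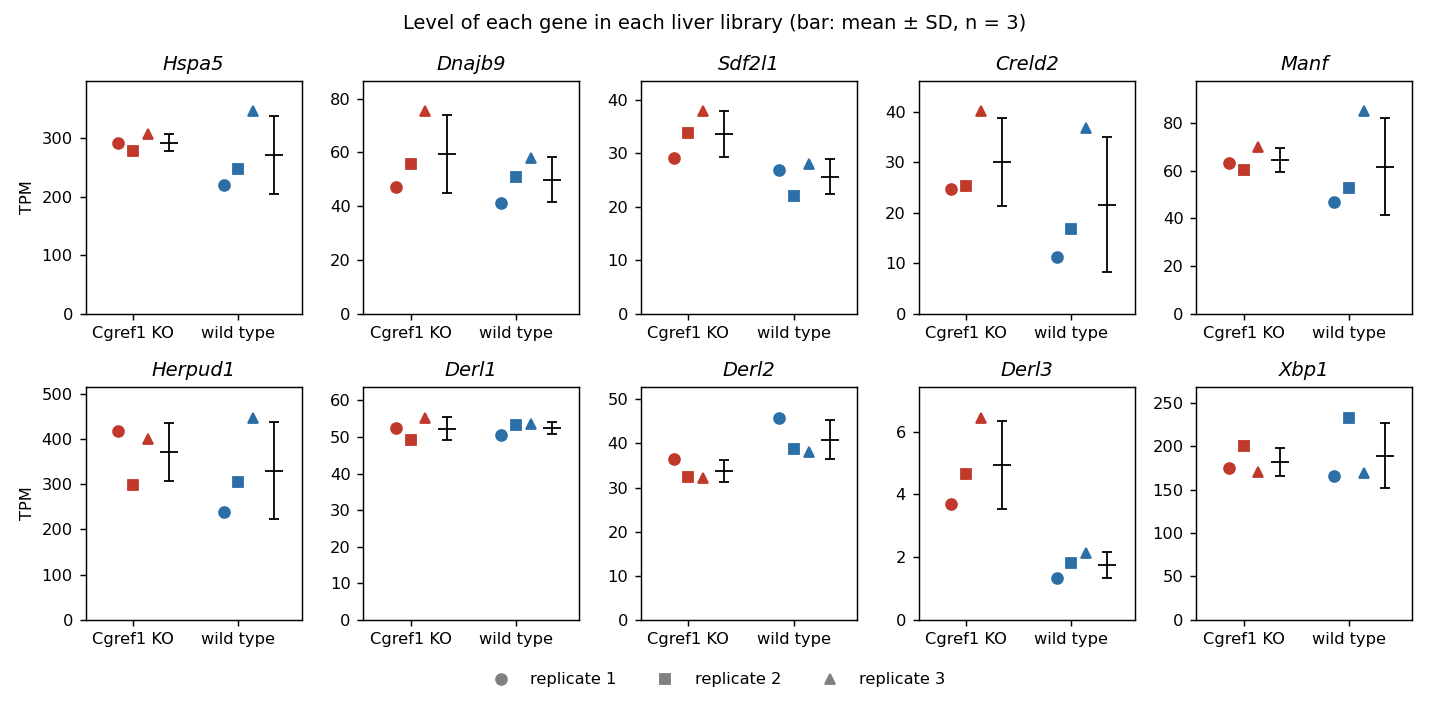
TPM of each gene (y axes, from 0) in the 3 Cgref1 KO and 3 wild type libraries; symbols mark the replicate number and the bar gives the mean and SD (n = 3). For Derl3 the Cgref1 KO libraries, at 3.68 to 6.45 TPM, lie above the wild type libraries, at 1.32 to 2.13 TPM. For Creld2, Manf, Herpud1, Hspa5, Dnajb9, Derl1 and Derl2 wild type replicate 3 lies above at least 2 of the 3 Cgref1 KO libraries.

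Hspa5, the gene for the main ER chaperone BiP, had 292.5, 277.9 and 308.1 TPM in knockout-labelled replicates 1, 2 and 3, against 220.5, 247.1 and 346.2 TPM in wild type replicates 1, 2 and 3. The knockout-labelled values sat close together inside a wide wild type range, whose top was wild type replicate 3. The log2 fold change was 0.25 (SE 0.15, edgeR adjusted p 0.974), and it was 0.45 without wild type replicate 3 and 0.13 without wild type replicate 1.

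Dnajb9, which encodes the BiP cochaperone ERdj4, had 47.0, 55.7 and 75.3 TPM in the knockout-labelled livers and 41.0, 50.8 and 57.8 TPM in the wild type livers. The groups overlapped, with knockout-labelled replicate 3 the highest of the 6. Its log2 fold change was 0.39 (SE 0.19, edgeR adjusted p 0.973) and 0.19 without that library.

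Sdf2l1, at chr16:17130138-17132383 on the minus strand, encodes a protein that works with BiP and its DnaJ partners in the ER lumen. It had 29.1, 33.7 and 37.8 TPM in the knockout-labelled livers, against 26.8, 21.9 and 28.0 TPM in the wild type livers. Each knockout-labelled library was above each wild type library, the closest pair being 29.1 and 28.0 TPM. On the scale of edgeR's CPM, counts scaled by library size and not by length, the means were 24.7 ± 3.76 CPM in knockout-labelled and 17.1 ± 2.19 CPM in wild type livers (SD, n = 3 each). The log2 fold change was 0.53 (SE 0.15, 95% confidence interval 0.20 to 0.86), at rank 72 of the 12033 genes by p, and the edgeR adjusted p of 0.850 did not pass.

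Creld2, which encodes a secreted ER stress-induced protein with EGF-like domains, had 24.7, 25.2 and 40.1 TPM in the knockout-labelled livers and 11.2, 16.8 and 36.8 TPM in the wild type livers. It varied most of the 10 genes within the wild type group, where the highest CPM was 3.18 times the lowest, more than the 1.53-fold ratio of the group means in CPM. Its log2 fold change was 0.62 with an SE of 0.48 (edgeR adjusted p 0.988), and it was 1.23 without wild type replicate 3 and 0.31 without wild type replicate 1. In the deposited table the span of Creld2 overlaps that of Alg12 on the other strand, and the strand setting of the counting is not given, so reads of the shared stretch cannot be told apart. Alg12 had 5.48, 4.76 and 7.21 CPM in knockout-labelled and 2.92, 3.77 and 4.53 CPM in wild type livers (log2 fold change 0.64, SE 0.23, edgeR adjusted p 0.918). The spans of Derl2, Hspa5, Xbp1 and Manf also overlap those of other genes (Mis12, Rabepk, Ccdc117, and Rbm15b with Dock3), each with at most 27.4 CPM in any library.

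Manf, a neurotrophic factor gene whose product stays in the ER under rest and is released on stress, had 63.4, 60.1 and 70.1 TPM in the knockout-labelled livers and 47.0, 52.8 and 84.9 TPM in the wild type livers. All knockout-labelled values lay between the second and the highest wild type value. The log2 fold change was 0.21 (SE 0.20, edgeR adjusted p 0.988), and it ranged from 0.053 without wild type replicate 1 to 0.50 without wild type replicate 3.

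Herpud1, whose membrane protein organises the ERAD ubiquitin ligase complex, had 417.5, 298.4 and 399.4 TPM in the knockout-labelled livers and 237.5, 303.8 and 447.5 TPM in the wild type livers. The groups overlapped fully, since the wild type range enclosed that of the knockout-labelled livers. Its log2 fold change was 0.31 (SE 0.22, edgeR adjusted p 0.984). It was 0.58 without wild type replicate 3 and 0.12 without wild type replicate 1.

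Xbp1, the transcription factor gene of the IRE1 arm, had 175.5, 200.6 and 170.7 TPM in the knockout-labelled livers and 166.3, 233.3 and 168.8 TPM in the wild type livers. Replicate 2 was the highest library in each group, and the groups overlapped. The log2 fold change of 0.084 (SE 0.15, 95% confidence interval -0.25 to 0.41, edgeR adjusted p 0.990) turned negative in 6 of 20 alternatives.

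Derlins are multi-pass membrane proteins of the ERAD channel. Mammals have 3 of them: Derl1 and Derl2 are widely expressed, whereas Derl3 is known as the form most restricted to secretory tissues and induced by XBP1. In liver Derl1 and Derl2 made up nearly all derlin transcripts, and Derl3 had the largest log2 fold change of the 3. Derl3 was 3.97%, 5.41% and 6.87% of the summed derlin TPM in knockout-labelled replicates 1, 2 and 3, against 1.35%, 1.93% and 2.27% in wild type replicates 1, 2 and 3. The sum itself was 86.2 to 93.9 TPM in knockout-labelled and 93.7 to 97.7 TPM in wild type livers.

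Derl3, at chr10:75886944-75895941 on the plus strand (coordinates of the deposited table, GRCm38), had 3.68, 4.66 and 6.45 TPM in the knockout-labelled livers, against 1.32, 1.81 and 2.13 TPM in the wild type livers. These values rest on 55, 76 and 107 counts in the knockout-labelled libraries and on 20, 28 and 32 counts in the wild type libraries. Each knockout-labelled library was above each wild type library, with 3.68 and 2.13 TPM as the closest pair. In CPM the means were 4.50 ± 1.34 in knockout-labelled and 1.44 ± 0.323 in wild type livers (SD, n = 3 each), a 3.12-fold ratio, against a highest-to-lowest ratio of 1.84 within the knockout-labelled and 1.58 within the wild type group.

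The log2 fold change of Derl3 was 1.64 (SE 0.29, 95% confidence interval 0.98 to 2.29, or 1.98-fold to 4.88-fold), at rank 6 of 12033 genes by p. The edgeR adjusted p was 0.341 and did not pass, whereas DESeq2 on the same counts gave an adjusted p of 0.00243. In the authors' deposited table Derl3 had a log2 fold change of 1.64 and a DESeq2 q-value of 0.00492; it was the 1 gene of the 10 with a q-value under 0.05 there, against 0.17% of the genes that the authors' deposited table tests. Over the alternatives that kept Derl3 its log2 fold change was 1.04 to 1.83, and it was positive in 19 of 19. The span of Derl3 in the deposited table overlaps that of Smarcb1, which had 14.2 to 16.7 CPM in knockout-labelled and 13.8 to 15.0 CPM in wild type livers. Derl3 itself had 3.21 to 5.89 CPM in knockout-labelled and 1.10 to 1.74 CPM in wild type livers. As for Creld2, reads of the shared stretch cannot be told apart, and their part in the values of Derl3 was not tested.

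Derl1, at chr15:57869502-57892418 on the minus strand, had 52.5, 49.2 and 55.3 TPM in the knockout-labelled livers and 50.5, 53.3 and 53.5 TPM in the wild type livers. It varied least of the 10 genes within the wild type group. In CPM it was 116.8, 118.8 and 128.3 in knockout-labelled and 108.9, 111.6 and 111.4 in wild type livers, without overlap, and the log2 fold change was 0.13 (SE 0.086, edgeR adjusted p 0.984).

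Derl2, at chr11:71007440-71019841 on the minus strand, had 36.5, 32.3 and 32.1 TPM in the knockout-labelled livers, against 45.9, 38.6 and 38.1 TPM in the wild type livers. It was the gene of the 10 with a negative log2 fold change, at -0.15 (SE 0.11, edgeR adjusted p 0.984), and at -0.052 without wild type replicate 1. Its knockout-labelled values lay below all wild type values in TPM but overlapped them in CPM, where they were 95.6, 91.8 and 86.7 in knockout-labelled and 116.4, 95.1 and 93.4 in wild type livers.

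Set against Derl1 within each library, Derl3 had a log2 ratio of TPM of -3.44 ± 0.37 in knockout-labelled and -4.93 ± 0.31 in wild type livers (SD, n = 3 each). The difference was 1.48, with an exact two-sided permutation p of 0.1. Against Derl2 the log2 ratio was -2.81 ± 0.50 in knockout-labelled and -4.57 ± 0.50 in wild type livers (SD, n = 3 each), a difference of 1.76 with an exact permutation p of 0.1. Adjusted over these 2 ratios the p was 0.1, which is the smallest that 3 against 3 libraries can give. The ratios of the groups did not overlap for either paralog.

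**Figure D3:**
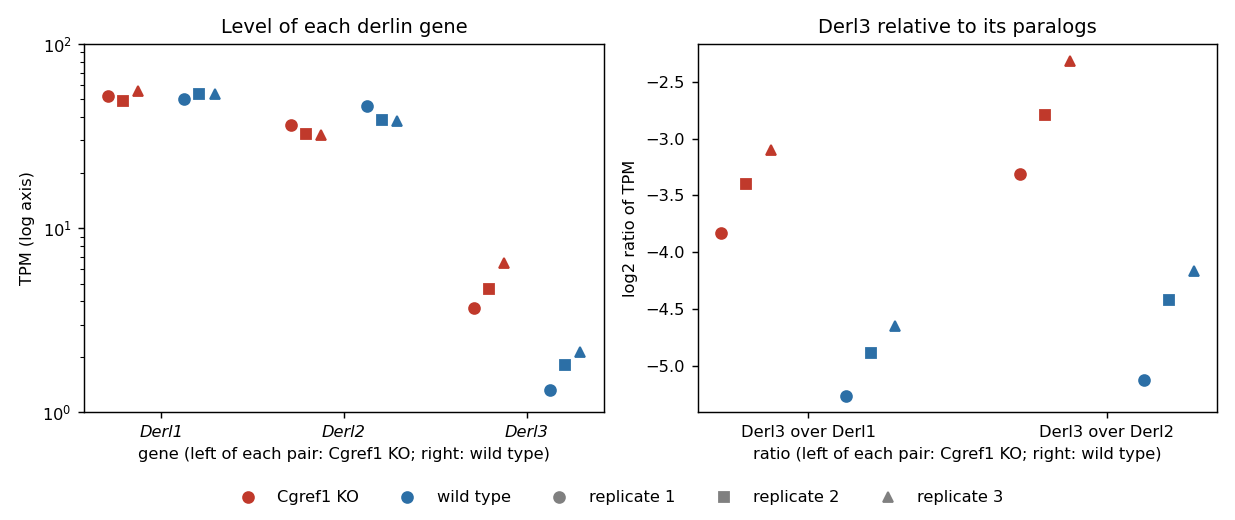
Left, TPM of Derl1, Derl2 and Derl3 on a log axis; right, log2 ratio of the TPM of Derl3 to that of Derl1 and of Derl2, per library (3 Cgref1 KO and 3 wild type, symbols by replicate number). The ratio to Derl1 runs between -3.83 and -3.10 in Cgref1 KO and between -5.26 and -4.65 in wild type libraries, and that to Derl2 between -3.31 and -2.32 in Cgref1 KO and between -5.12 and -4.16 in wild type libraries.

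How many genes kept their groups apart depended on the scale. In CPM all 3 knockout-labelled libraries were above all 3 wild type libraries for 3 of 10 genes (Derl3, Sdf2l1 and Derl1), against 6.2% of all genes tested, and below them for 0 of 10, against 4.63%. In TPM the count was 2 of 10 higher (Derl3 and Sdf2l1), against 1.44%, and 1 of 10 lower (Derl2), against 15.3%. TPM placed the knockout-labelled livers lower across the whole table. On log2(TPM + 0.1) the share of all genes tested with a log2 fold change above 0 was 22.5%, and the median over all was -0.13. Relative to that median 9 of the 10 genes were higher, and 7 of 10 had a value above 0, Derl1 and Xbp1 standing at -0.0038 and -0.041.

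Several of the genes were high or low in the same libraries, and in both groups replicates 1 and 3 stood at opposite ends. The median log2 ratio of the 10 genes to the wild type mean CPM was 0.16, 0.25 and 0.37 in knockout-labelled replicates 1, 2 and 3 and -0.26, -0.11 and 0.23 in wild type replicates 1, 2 and 3. Wild type replicate 3 lay inside the knockout-labelled range. It was the highest wild type library for 7 of the 10 genes, against 34.5% of all genes tested, and knockout-labelled replicate 3 was the highest of its group for 7 of 10, against 33.1%. Knockout-labelled replicate 1 was the lowest of its group for 8 of 10, against 34.4%. Wild type replicate 1 was the lowest of all 6 libraries for 7 of 10, against 24.1% of all genes. Within the wild type group the highest CPM was 3.18 times the lowest for Creld2, 1.83 times for Herpud1, 1.75 for Manf, 1.58 for Derl3 and 1.52 for Hspa5, and less for the other 5 genes. The ratio of group means exceeded the highest-to-lowest ratio within both groups for 2 genes, Derl3 and Sdf2l1.

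**Figure D4:**
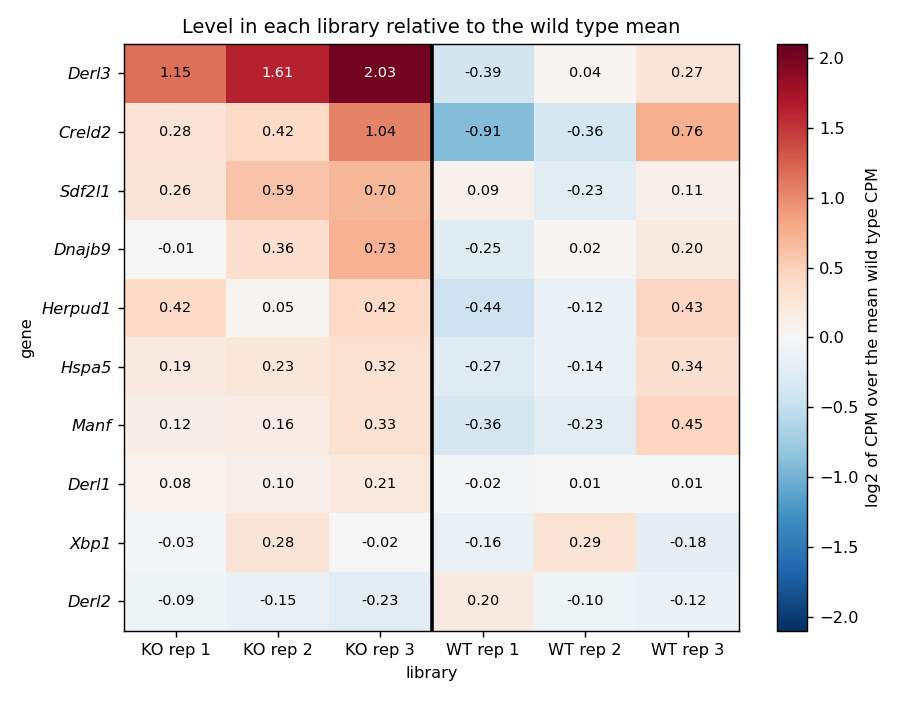
Log2 of the CPM of each gene (rows) in each library (columns, Cgref1 KO left of the line and wild type right of it) over the mean wild type CPM; red is above and blue below that mean. Derl3 reads up to 2.03 in the Cgref1 KO libraries and up to 0.27 in the wild type libraries, and Creld2 reads -0.91 in wild type replicate 1 and 0.76 in wild type replicate 3.

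Other genes of the pathway were taken from 5 lists by role, also written with earlier results of these data known. Of ER chaperones and folding enzymes 22 were in the table and 21 were tested; 0 passed in either direction in edgeR, and 21 of 21 log2 fold changes were above 0, with a median of 0.18. The 3 with the smallest p were Uggt1, which senses misfolded glycoproteins (0.26, SE 0.090), Dnajc10, a disulphide reductase of ERAD (0.27, SE 0.10), and P4hb, the protein disulphide isomerase with the highest level of the list (0.22, SE 0.096). P4hb had a mean of 1197 ± 42.9 CPM in knockout-labelled and 1030 ± 37.1 CPM in wild type livers (SD, n = 3 each). The groups of Uggt1, Dnajc10 and P4hb did not overlap in CPM but overlapped in TPM. These 3 were picked by p, so their separation in CPM follows in part from that choice. Over the list, 7 of 21 had all knockout-labelled libraries above all wild type libraries in CPM, against 6.2% of all genes tested. On log2(TPM + 0.1) 14 of the 21 stayed above 0, against 22.5% of all genes, and 21 of 21 stayed above the median of all genes.

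Of the ERAD machinery 19 genes were tested, 0 passed in either direction, and 14 had log2 fold changes above 0. The median of the 19 was 0.11, but 0.054 without wild type replicate 1 and 0.069 without wild type replicate 2. On log2(TPM + 0.1) 7 were above 0, against 22.5% of all genes, and 13 were above the median of all genes. Edem2, which marks glycoproteins for degradation by trimming their mannose, had an edgeR log2 fold change of 0.37 (SE 0.11). Syvn1, the ubiquitin ligase HRD1 with which derlins work, had 0.43 (SE 0.14), with means of 68.1 ± 6.46 CPM in knockout-labelled and 50.6 ± 9.27 CPM in wild type livers (SD, n = 3 each). Vcp, the ATPase that pulls substrates from the membrane and the highest gene of this list, had -0.047 (SE 0.11). The groups of Edem2 and of Syvn1, both picked by p, did not overlap in CPM but overlapped in TPM. Over the list, 6 of 19 had all knockout-labelled libraries above all wild type libraries in CPM, against 6.2% of all genes tested.

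Of 8 genes of the sensors and their activation 0 passed in either direction, and 6 were above 0 (median 0.097). Without wild type replicate 1 the median was 0.025 and 4 of 8 were above 0. On log2(TPM + 0.1) 4 of 8 were above 0, against 22.5% of all genes. The PERK gene Eif2ak3 had an edgeR log2 fold change of 0.41 (SE 0.14), while the IRE1 gene Ern1 had -0.36 (SE 0.15). The groups of Eif2ak3, picked by p, did not overlap in CPM but overlapped in TPM. It was the 1 of 8 genes with all knockout-labelled libraries above all wild type libraries in CPM, against 6.2% of all genes tested. Ern1 stood at 12.2 ± 1.63 CPM in knockout-labelled and 15.6 ± 1.86 CPM in wild type livers (SD, n = 3 each), and the groups overlapped in CPM but not in TPM. Creb3, the highest of this list, had 0.23 (SE 0.12).

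Of 28 genes of ER entry and early secretion 0 passed in either direction, and 25 were above 0 (median 0.13). On log2(TPM + 0.1) 11 of 28 were above 0, against 22.5% of all genes, and 26 were above the median of all genes. Sec61a1, the channel of the protein translocon, had an edgeR log2 fold change of 0.40 (SE 0.12) and Sec23b of the COPII coat 0.30 (SE 0.096). Ddost of the oligosaccharyltransferase had 0.29 (SE 0.097), and Sec61b, the highest of the list, 0.26 (SE 0.14). The groups of Sec61a1, Sec23b and Ddost, all picked by p, did not overlap in CPM but overlapped in TPM. Over the list, 9 of 28 had all knockout-labelled libraries above all wild type libraries in CPM, against 6.2% of all genes tested. Of the PERK and ATF4 arm 9 of 12 genes were tested, 0 passed in either direction, and 5 were above 0 (median 0.095; -0.062 on log2(TPM + 0.1), and between -0.062 without wild type replicate 3 and 0.085 without wild type replicate 1 over single left-out libraries). Asns had 1.28 (SE 0.46), Sesn2 0.29 (SE 0.20) and Ddit3, the gene for CHOP, 0.18 (SE 0.19), and the groups overlapped in each. Atf4, the highest of that list, had a log2 fold change of -0.0060 (SE 0.12).

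**Figure D5:**
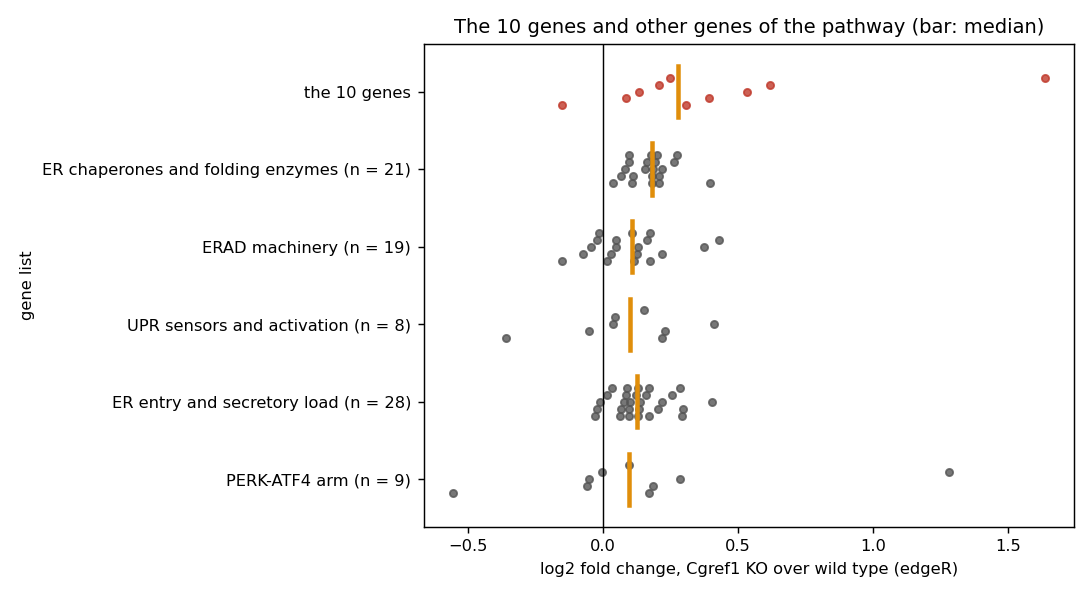
Log2 fold changes, Cgref1 KO over wild type, of the 10 genes and of the tested genes of 5 further lists (points; bars are medians). The medians lie at 0.28 for the 10 genes, 0.18 for chaperones, 0.11 for ERAD, 0.097 for sensors, 0.13 for ER entry and 0.095 for the PERK and ATF4 arm, against -0.0022 over all genes tested.

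Markers of other cell types were read beside these results, since in bulk liver more cells of a type and more RNA per cell cannot be told apart. Kupffer cell markers (12 of 12 in the table) summed to 397.2 to 428.0 CPM in knockout-labelled and 316.9 to 349.1 CPM in wild type livers. All 12 log2 fold changes were above 0, and 0 of 12 were called in edgeR. Their median was 0.32, against 0.28 for the 10 genes. Of the 12, 8 had an edgeR unadjusted p under 0.05, against 5.15% of all genes tested. In CPM 8 of 12 had all knockout-labelled libraries above all wild type libraries, against 6.2% of all genes tested. Hepatocyte markers (9 of 10 in the table) summed to 79584 to 101706 CPM in knockout-labelled and 77691 to 107870 CPM in wild type livers. Most of this came from Alb. Of the 9, 4 log2 fold changes were above 0 and 5 below, and 0 were called in edgeR. In CPM 3 of 9 (Apoa1, Serpina1a and Ahsg) had all knockout-labelled libraries above all wild type libraries, against 6.2% of all genes tested. Plasma cells and pancreatic acinar cells are rich in ER chaperones and Derl3. Plasma cell markers (9 of 12 in the table) summed to 125.5 to 146.2 CPM in knockout-labelled and 120.0 to 166.9 CPM in wild type livers, most of it from Sdc1, which hepatocytes also express. Of their defining genes Jchain had 172, 125 and 101 counts in knockout-labelled and 115, 107 and 159 counts in wild type libraries, and Mzb1 had 0.110 to 0.466 CPM in knockout-labelled and 0.212 to 0.386 CPM in wild type libraries. Tnfrsf17 was at 0 counts in 2 of 3 libraries of each group. Fkbp11, an ER folding gene on the same list, had 10.5, 12.4 and 15.0 CPM in knockout-labelled and 6.90, 8.44 and 9.76 CPM in wild type libraries, without overlap (log2 fold change 0.60, SE 0.18, edgeR adjusted p 0.850).

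Pancreatic acinar markers (8 of 16 in the table) summed to 25.9 to 27.5 CPM in knockout-labelled and 17.2 to 27.9 CPM in wild type livers, most of it from Cela1, while Amy2a1 and Prss2 were at 0 counts in every library but knockout-labelled replicate 2. Cela2a, the other acinar marker that was tested, had 7, 18 and 22 counts in knockout-labelled and 11, 11 and 7 counts in wild type libraries, which overlap, with a log2 fold change of 0.76. Neutrophil markers (6 of 6) summed to 4.54 to 8.25 TPM in knockout-labelled and 6.42 to 10.5 TPM in wild type livers. Intestinal markers (20 of 22 in the table) summed to 277.7 to 313.0 CPM in knockout-labelled and 257.5 to 309.6 CPM in wild type livers, mostly from Anpep, Fabp2 and Apoa4; Fabp2 was the highest of them in mean TPM. Of the 6 that were tested, 4 had log2 fold changes above 0 and 2 below. Apoa4 had 1064, 1675 and 1483 counts in knockout-labelled and 805, 809 and 1073 counts in wild type libraries. Tff3 had 10, 35 and 58 against 12, 14 and 29 counts. The 2 with values below 0 were Fabp2 and Lgals4. Fabp2 had 1259, 1400 and 1098 counts in knockout-labelled and 2204, 1378 and 2115 counts in wild type libraries (log2 fold change -0.53, SE 0.20). Lgals4 had 39, 24 and 24 against 33, 47 and 75 counts. Another 13 intestinal markers were picked for being at 0 counts in every knockout-labelled library, so their contrast with wild type follows from that choice. Wild type replicates 1, 2 and 3 held 138, 9 and 228 counts of these 13 in all. The 2 libraries with most of these counts were the lowest (replicate 1) and the highest (replicate 3) of the wild type group by the median of the 10 genes. The part of the hepatocyte and Kupffer cell markers, of Fkbp11 and Cela2a, and of the intestinal counts in the differences described here was not tested.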

How the data were processed

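Messenger RNA of the 6 samples was sequenced after adaptor ligation and amplification, per the labels' protocols. HISAT, Bowtie2, RSEM and DESeq2 are named in the submitters' processing notes, without versions or settings. The authors deposited expected counts, which are not normalized, with TPM and FPKM values per gene and library, and a log2 fold change with DESeq2 p-values and q-values, per the file headers; 15 columns of group means and single-library contrasts were not used. Chromosomes carry the RefSeq accessions of GRCm38.

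Counts were rounded and filtered (edgeR's filterByExpr, minimum count 10). Libraries were scaled by TMM and compared with edgeR 4.0.16 (R 4.3.3), robust quasi-likelihood test, Benjamini-Hochberg adjustment over all 12033 genes and a threshold of 0.05. CPM uses the TMM-scaled totals. The ratios of Derl3 to its paralogs were compared by exact permutation (scipy 1.17.1). Alternatives used DESeq2 1.42.0, limma 3.58.1 (voom, or trend on log2 TPM or FPKM with a pseudocount of 1 or 0.1), other scalings and filters, a replicate block, removal of haemoglobin and Mup genes, and left-out libraries. The named genes were the 10 genes, Cgref1, called genes and, per pathway list, the 3 with the smallest p and the highest in TPM, and per marker list the highest in TPM; Alg12, Smarcb1 and the other markers were named after their values were seen. A gene that this rule names in the ERAD list is not reported here. The 10 genes and the lists were chosen with earlier results of these data known. On simulated data with 11921 genes tested, 50 genes were changed at each of 1.5-fold, 2-fold, 3-fold and 4-fold. There edgeR recovered 34% of genes changed 1.5-fold, 64% of genes changed 2-fold and 92% of those changed 3-fold, with 6 false calls. With so many genes changed at once, the adjusted p was easier to pass than in the real data, where 1 gene was called. The shares thus do not measure the power for the 10 genes.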

Additional observations from a re-analysis of the deposited data

How the results depend on the processing

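All 10 genes kept their direction in most of the 20 alternatives. Derl3 was positive in all 19 that kept it (1.04 to 1.83, adjusted p 0.00243 to 1.00) and Sdf2l1 in all 20 (0.38 to 0.75); a minimum mean of 5 CPM left Derl3 out. Derl1 turned to -0.0038 and -0.0037 on log2(TPM + 0.1) and log2(TPM + 1), and Xbp1 to -0.041 on both, to -0.0030 scaled by library totals and to -0.22 without wild type replicates 1 and 3 together, with a range of -0.022 to 0.26 over single left-out libraries; the cause was not tested. The genes called over all, 1 with edgeR, were 28 with DESeq2, 0 at a minimum mean of 5 CPM, 0 without wild type replicates 1 and 3 together, and 1 to 5 without single libraries, 5 being without knockout-labelled replicate 1.

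Of the 10 genes 1, Derl3, was called with DESeq2 and 1, Derl3 again, with the replicate block (adjusted p 0.0178, log2 fold change 1.63), and 0 in the other 18 alternatives, limma-voom included. The median of the 10 genes ran between 0.12 and 0.50 over left-out libraries. With the replicate number as a block 34 genes were called over all. Deviations of same-numbered libraries correlated at 0.342, 0.0729 and 0.409 across genes, each library correlating best with its own number, a hint from the data and not from the design; the labels name no pairing. On log2(TPM + 0.1) and log2(TPM + 1), positive values numbered 7 of 19 for ERAD and 11 of 28 for ER entry, against 22.5% of all genes on both. At a minimum mean of 5 CPM 1 of 3 was positive for the PERK and ATF4 arm, against 49.7% of all genes. The difference in the ratio of Derl3 to Derl1 was 1.31 to 1.68 and to Derl2 1.48 to 2.01 over 9 alternatives each. Depth limits Derl3, with 20 to 107 counts a library, more than the other 9 genes.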
